A study of Mus musculus with 8 samples.

Results

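The genes described are the subunits of the vacuolar H+-ATPase (V-ATPase), its accessory proteins and the carbonic anhydrases, chosen as all gene symbols in the count table that begin with Atp6v0, Atp6v1, Atp6ap1, Atp6ap2 or with Car and a digit. The rule found 42 of 19348 genes, 26 with an Atp6 symbol and 16 with a Car symbol. Among them, Atp6v1fnb is a neighbour of Atp6v1f that carries the prefix without being a subunit. The other 25 Atp6 genes were placed in classes by their known tissue distribution. The classes held 14 ubiquitous subunits and isoforms, 5 isoforms restricted to acid-secreting epithelia, 3 isoforms restricted to other tissues and 3 accessory proteins. Of the 5, Atp6v0d2 is also known from osteoclasts. RNA was sequenced from liver and from epididymal white adipose tissue (eWAT, a fat depot attached to the epididymis) of male C57BL/6 mice aged 12 weeks and fasted for 16 h. Crtc1-/- mice lack the CREB coactivator Crtc1 throughout the body after CRISPR/Cas9 cutting with 2 guide RNAs at exons 2 and 4, and Crtc1+/+ mice were wild-type littermates from heterozygous parents. Each of the 4 groups (eWAT Crtc1+/+, eWAT Crtc1-/-, liver Crtc1+/+ and liver Crtc1-/-) had 2 libraries, 8 in all, and the labels name no other treatment or allele. Estimated counts summed to between 16560070 and 19721464 per library, and CPM are counts scaled to that total times the TMM factor of the library (edgeR's trimmed mean of M-values, set within each tissue), so that the floor of 3 counts lay between 0.144 and 0.208 CPM. As the factors were set separately in eWAT and liver, CPM of the tissues are given side by side and compared only in the fit of all 8 libraries.

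The targeted gene was not lower in the libraries labelled Crtc1-/-. The CPM of Crtc1 were 32.5 and 33.7 in the Crtc1+/+ and 58.5 and 33.6 in the Crtc1-/- libraries of eWAT (log2 fold change 0.48, adjusted p = 0.396), and 11.7 and 9.86 against 22.1 and 18.0 in those of liver (0.89, adjusted p = 0.184). The counts are given per gene and do not separate the targeted exons, so genotypes are used below as the labels give them. Every direction drawn between genotypes below is one between libraries with these labels. Markers of other tissues differed between the eWAT libraries. The 13 markers of the epididymal principal cell held 8.07% and 9.34% of all counts in eWAT Crtc1+/+ and 0.0024% and 0.00126% in eWAT Crtc1-/-, where Ros1 and Spink13 were at 0 in both libraries. The 10 hepatocyte markers held 9.91% of the counts of eWAT Crtc1-/- replicate 2, against 0.0726% to 0.592% in the other 3 eWAT libraries and 18.2% to 22.6% in liver. The 8 adipocyte markers held 0.21% and 0.335% in eWAT Crtc1+/+ and 3.86% and 1.81% in eWAT Crtc1-/-, and the 7 endothelial markers 0.0299% and 0.0315% against 0.509% and 0.299%. The 7 skeletal muscle markers lay between 0.000899% and 0.099% in the 8 libraries. Every eWAT comparison of genotypes below includes these differences, and in bulk tissue fewer cells of a type and less RNA per cell cannot be told apart.

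The V-ATPase is a rotary proton pump. Its cytosolic V1 sector (subunits A to H) hydrolyses ATP and its membrane V0 sector (a, c, c'', d and e) carries the protons. Nearly every cell uses one set of isoforms to acidify lysosomes and endosomes, while clear cells of the epididymis, intercalated cells of the kidney and osteoclasts add isoforms of subunits B, C, G, a and d that bring the pump to the plasma membrane. Carbonic anhydrases interconvert carbon dioxide and bicarbonate and so supply the protons that such cells secrete. In the epididymis the clear cells acidify the lumen in which sperm are stored, and the forkhead factor Foxi1 is required there for the restricted subunits. Adipocytes and hepatocytes use carbonic anhydrases to supply bicarbonate for carboxylation in lipogenesis, gluconeogenesis and ureagenesis.

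The promoters of 4 genes are shown as examples of restricted and ubiquitous subunits, and their part in the values below was not tested. The sequences are the 250 bases before an annotated start, read 5′ to 3′ on the gene's strand, from RefSeq (GRCm38.p6). For Atp6v1a the window lies inside the annotated span of the gene (chr16:44085402-44139702). Capitals mark TGTTTAC or its reverse complement GTAAACA, the core bound by forkhead factors, and TCACGTG or its reverse complement CACGTGA, the E-box of the lysosomal CLEAR element. Atp6v1b1 (chr6:83742767-83743016, plus strand) and Atp6v1g3 (chr1:138273488-138273737, plus strand) are restricted, and Atp6v1a (chr16:44139260-44139509, minus strand) and Atp6v0b (chr4:117887330-117887579, minus strand) are ubiquitous.
Atp6v1b1: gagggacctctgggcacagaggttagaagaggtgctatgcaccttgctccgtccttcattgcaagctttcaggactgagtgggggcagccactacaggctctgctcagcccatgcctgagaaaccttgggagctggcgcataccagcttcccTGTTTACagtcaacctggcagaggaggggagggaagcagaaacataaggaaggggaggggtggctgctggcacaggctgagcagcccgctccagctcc
Atp6v1g3: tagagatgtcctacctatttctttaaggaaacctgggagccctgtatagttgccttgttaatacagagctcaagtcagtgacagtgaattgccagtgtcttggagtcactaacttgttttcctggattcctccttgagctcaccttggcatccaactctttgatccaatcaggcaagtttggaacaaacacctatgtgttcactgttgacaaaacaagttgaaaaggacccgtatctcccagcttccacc
Atp6v1a: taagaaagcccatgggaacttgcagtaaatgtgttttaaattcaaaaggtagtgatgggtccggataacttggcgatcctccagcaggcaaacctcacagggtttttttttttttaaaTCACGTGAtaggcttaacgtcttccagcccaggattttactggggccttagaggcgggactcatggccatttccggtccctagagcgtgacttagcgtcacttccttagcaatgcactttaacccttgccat
Atp6v0b: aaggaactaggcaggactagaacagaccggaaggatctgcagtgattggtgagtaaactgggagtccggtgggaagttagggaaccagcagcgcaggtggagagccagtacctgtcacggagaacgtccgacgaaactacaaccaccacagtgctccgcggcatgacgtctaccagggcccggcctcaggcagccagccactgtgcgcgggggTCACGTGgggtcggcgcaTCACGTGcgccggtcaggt
Windows reaching 50 bases past the start were given for 30 members (37 windows, as some genes have several starts). The forkhead core lay in the windows of 2 of the 30 members, Atp6v1b1 (98 bases before the start) and Car5a (109 bases before the start). It thus lay in 1 of the 4 restricted isoforms with a window, and in 3.65% of all 32851 windows. The E-box lay in 4 members, the ubiquitous Atp6v1a, Atp6v0b, Atp6v0d1 and Atp6v0e, out of 9 ubiquitous genes with a window, against 3.77% of all windows. The cyclic AMP response element through which CREB and its Crtc coactivators act (TGACGTCA, its own reverse complement) was found in 0 of 30 members and 1.79% of all windows. The shorter core of this element (TGACG or CGTCA, also contained in the full element) was found in 10 members, among them 6 of the 9 ubiquitous subunits and 0 of the 4 restricted isoforms with a window, and in 20.8% of all windows. These are matches of letters, and binding was not measured.

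The ubiquitous subunits were expressed in all 8 libraries, at very different levels per length. FPKM (fragment counts scaled to gene length and library depth, a scale on which genes of different length can be compared) summed over the 14 genes came to 2068 and 1871 in eWAT Crtc1+/+, 2085 and 1448 in eWAT Crtc1-/-, and between 774 and 1044 in the liver libraries. In eWAT Crtc1+/+ the most abundant were Atp6v0c, the proteolipid that forms most of the rotor ring (505 and 395 FPKM), Atp6v1f (368 and 261 FPKM) and Atp6v0e (335 and 336 FPKM). Atp6v1a, the catalytic subunit, was among the lowest (9.66 and 16.0 FPKM), and so was Atp6v0a2 (8.34 and 10.2 FPKM).

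**Figure D1:**
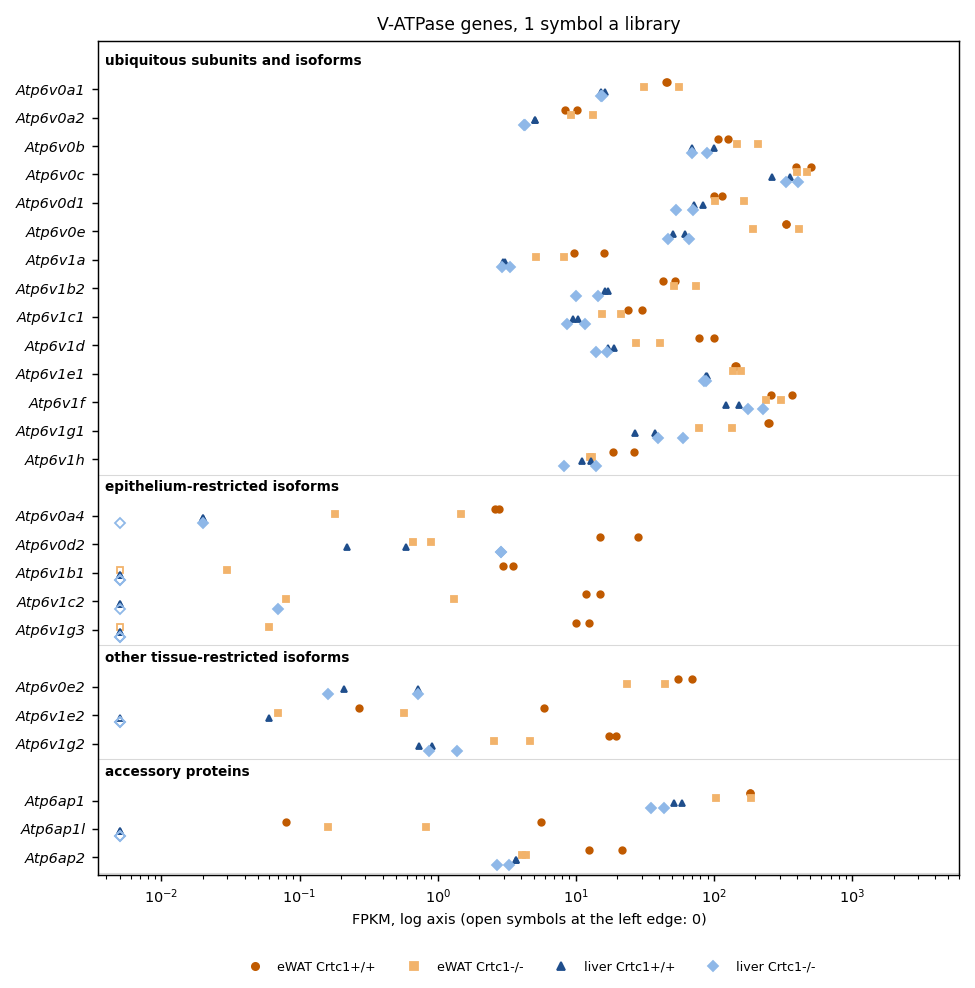
FPKM on a log axis of the 25 classified V-ATPase genes in the 8 libraries, with 1 symbol for each library and open symbols at the left edge for a value of 0. The 14 ubiquitous genes lie at or above 2.91 FPKM in every library, while the 5 epithelium-restricted isoforms lie at or above 2.60 FPKM in eWAT Crtc1+/+, and Atp6v1b1 and Atp6v1g3 are at 0 in both liver groups.

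The genotypes were compared first in eWAT. edgeR's quasi-likelihood test called 12.2% of the 15391 genes tested at an adjusted p under 0.05 (1023 higher and 852 lower in Crtc1-/-), and 8 of the 37 members tested (21.6%), 2 of them higher and 6 lower. The other 5 members (Atp6v1e2, Atp6v1fnb, Car6, Car9 and Car10) did not pass the filter on low counts. Some members passed that filter through eWAT Crtc1+/+ alone, so the count is a description. The calls depended on single libraries, and leaving out either eWAT Crtc1+/+ library left no call among members or all genes. Leaving out eWAT Crtc1-/- replicate 1 raised the number of calls among members and among all genes.

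Of the 14 ubiquitous subunits 0 were called in eWAT (3 at an unadjusted p under 0.05), with 9 log2 fold changes above 0 and 5 below, a range of -1.09 to 0.93 and a median of 0.19 beside -0.05 over all genes. The sign of that median depends on the scaling, at -0.02 with upper-quartile and -0.09 with library-size factors. The extremes were Atp6v1d, of the central stalk (87.3 and 115 CPM in Crtc1+/+, 52.1 and 42.9 CPM in Crtc1-/-; log2 fold change -1.09, standard error 0.30, adjusted p = 0.0761), and Atp6v0b, the c'' proteolipid (94.5 and 81.9 against 180.2 and 155 CPM; 0.93, standard error 0.28, adjusted p = 0.0925). Both genes had groups that did not overlap, and both passed the threshold in DESeq2, which called 3 of the 14. Here and below, groups of 2 libraries that do not overlap are a description, as the share of all genes without overlap was not counted. Atp6v1d and Atp6v0b, and below the accessory proteins, Atp6v0e2, Atp6v1e2, Car1 and Car13, were picked out after their values were seen.

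In FPKM each epithelium-restricted isoform was higher in both eWAT Crtc1+/+ libraries than in every other library. The size of the gap differed, and Atp6v0a4 was at only 2.77 and 2.60 FPKM in eWAT Crtc1+/+ against 1.48 and 0.18 FPKM in eWAT Crtc1-/-. Their summed level was 45.9 and 58.9 FPKM in eWAT Crtc1+/+ and 3.54 and 1.15 FPKM in eWAT Crtc1-/-. All 5 had a negative log2 fold change, with a median of -4.37. Past the threshold fell 3 of 5, beside 5.54% of all genes called lower. Atp6v1b1, Atp6v1c2 and Atp6v1g3 passed the filter on low counts through eWAT Crtc1+/+ alone, so this count is a description. In the same libraries the epididymal markers fell from 8.07% and 9.34% to 0.0024% and 0.00126% of counts, and the presence of those transcripts and the genotype cannot be told apart in 4 libraries.

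Subunit B sits between the catalytic A subunits of V1. Atp6v1b1 (chr6:83743017-83758855 in GRCm38.p6), whose human counterpart is mutated in renal tubular acidosis with deafness, had 97 and 110 counts (4.67 and 5.70 CPM) in eWAT Crtc1+/+, 1 and 0 counts in eWAT Crtc1-/-, and 0 counts in all 4 liver libraries. Its log2 fold change in eWAT was -7.14 (standard error 1.07, adjusted p = 0.0260), a value that depends on the prior count. From the counts alone it was 168-fold higher in Crtc1+/+ (95% exact interval of the counting error 29.9 to 6.68e+03). The ubiquitous Atp6v1b2 was at 98.0 and 125 CPM in eWAT Crtc1+/+ and at 195.9 and 164 CPM in Crtc1-/- (log2 fold change 0.69, standard error 0.30, adjusted p = 0.178), with no overlap between the groups. In liver it lay between 25.4 and 45.6 CPM. Atp6v1b1 thus made up 6.50% and 6.26% of the FPKM at the B position in eWAT Crtc1+/+, 0.0404% and 0% in eWAT Crtc1-/-, and 0% in liver.

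Subunit C clamps the stator stalk to the membrane sector and leaves when the pump is disassembled. In FPKM Atp6v1c2 was the restricted isoform with the largest share of its position in both eWAT Crtc1+/+ libraries, while in counts Atp6v0d2 had the larger share in replicate 2 (31.1% against 22.2%). Atp6v1c2 was at 18.8 and 15.3 CPM in Crtc1+/+, at 1.87 and 0.139 CPM in Crtc1-/-, and at 2 counts in 1 liver library and 0 in the other 3. The pair of Crtc1-/- libraries differed from each other by a larger ratio than the Crtc1+/+ pair did, and the log2 fold change of -4.05 (standard error 1.12) did not pass (adjusted p = 0.0787). It passed without either eWAT Crtc1-/- library (-6.87 without replicate 1 and -3.21 without replicate 2). The ubiquitous Atp6v1c1 was at 40.7 and 53.9 CPM against 42.1 and 37.5 CPM, groups that overlapped, and at 16.8 to 22.1 CPM in liver. The share of Atp6v1c2 at the C position was 38.9% and 28.2% in eWAT Crtc1+/+, 5.82% and 0.511% in eWAT Crtc1-/- and at most 0.803% in liver. The gene overlaps Pdia6, and whether strand was used in counting is not given in the sources used here.

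Subunit G belongs to the stator stalks and has 3 isoforms. Atp6v1g3 (chr1:138273738-138289462), the renal and epididymal isoform, had 321 and 383 counts (15.4 and 19.9 CPM) in eWAT Crtc1+/+, 2 and 0 counts in eWAT Crtc1-/- and 0 in liver. Atp6v1g3 changed by -8.05 on the log2 scale (standard error 0.95, adjusted p = 0.0191), and the ratio from counts was 286-fold (95% exact interval 79 to 2.37e+03). Atp6v1g2 (chr17:35234931-35238767, overlapping Nfkbil1), known as the neuronal isoform, fell as well, from 19.2 and 22.2 CPM to 5.77 and 3.75 CPM (-2.12, standard error 0.42, adjusted p = 0.0414, and 0.0836 without eWAT Crtc1-/- replicate 2), and stood at 0.924 to 1.68 CPM in liver. The 6 neuronal markers held 0.00448% and 0.00254% of counts in eWAT Crtc1+/+ and 0.00289% and 0.000942% in Crtc1-/-, and their part in this result was not tested. The ubiquitous Atp6v1g1 was at 209 and 210.0 CPM in Crtc1+/+ and at 129.7 and 92.4 CPM in Crtc1-/- (-0.92, standard error 0.31, adjusted p = 0.118), and at 25.9 to 55.8 CPM in liver. At the G position Atp6v1g3 made up 3.62% and 4.53% and Atp6v1g2 6.21% and 7.04% in eWAT Crtc1+/+, against at most 0.0431% and 3.33% in eWAT Crtc1-/-.

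Subunit a holds the proton channels and directs the pump to its membrane. Atp6v0a4, the isoform of intercalated and clear cells, was at 7.65 and 7.41 CPM in eWAT Crtc1+/+ and at 4.72 and 0.694 CPM in Crtc1-/-. The groups did not overlap, but the Crtc1-/- replicates differed widely and the log2 fold change of -1.47 (standard error 0.95) did not pass (adjusted p = 0.319). Without eWAT Crtc1-/- replicate 1 it was -3.42 (adjusted p = 0.0411) and without replicate 2 it was -0.70. The gene overlaps Tmem213 and D630045J12Rik, and its counts were not whole in 2 libraries. Of the broadly expressed isoforms, Atp6v0a1 was at 155 and 158 against 219.9 and 146 CPM, and Atp6v0a2 was at 38.2 and 48.1 against 70.9 and 58.7 CPM. Tcirg1, the a3 isoform of lysosomes, macrophages and osteoclasts, carries no Atp6 symbol and was added to this position. It rose from 15.2 and 12.2 CPM to 56.6 and 54.1 CPM (2.01, standard error 0.31, adjusted p = 0.0263). In the same libraries the 7 macrophage markers held 0.0204% and 0.0121% against 0.0743% and 0.0355% of counts, and their part in this rise was not tested. The share of the a position held by Atp6v0a4 was 4.34% and 4.13% in eWAT Crtc1+/+ against 1.59% and 0.312% in eWAT Crtc1-/-, while that of Tcirg1 was 10.7% and 8.34% against 23.5% and 30.0%. In liver Tcirg1 held 38.7% to 42.5% and Atp6v0a4 at most 0.0613%.

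Subunit d couples the rotor of V1 to the membrane ring. Atp6v0d2 (chr4:19876838-19922566), the isoform of osteoclasts, kidney and epididymis, was the one restricted member found in all 8 libraries. It fell in eWAT from 31.1 and 60.9 CPM to 1.81 and 2.64 CPM (log2 fold change -4.37, standard error 0.53, adjusted p = 0.0193). The liver values were 0.513 and 1.42 CPM (10 and 27 counts) in Crtc1+/+ and 6.76 and 6.65 CPM (129 and 114 counts) in Crtc1-/-. The liver groups did not overlap, and the log2 fold change of 2.79 (standard error 0.48) had an adjusted p of 0.0689. In the same liver libraries the epididymal markers held 0.000213% and 0.000184% of counts in Crtc1+/+ and 0.0084% and 0.00116% in Crtc1-/-. The 4 of these 13 markers that were tested in liver had log2 fold changes of 3.68 to 4.99, with 0 called and all 4 at an unadjusted p under 0.05. The 7 macrophage markers held 0.0235% and 0.0144% in liver Crtc1+/+ and 0.0282% and 0.0184% in liver Crtc1-/-. The part of either list in the Atp6v0d2 value was not tested. The ubiquitous Atp6v0d1 was at 148 and 135 against 246 and 186 CPM in eWAT (0.61, standard error 0.30, adjusted p = 0.225) and at 76.9 to 125 CPM in liver. Atp6v0d2 therefore made up 11.6% and 21.9% of the d position in eWAT Crtc1+/+, 0.4% and 0.861% in eWAT Crtc1-/-, 0.261% and 0.810% in liver Crtc1+/+ and 3.89% and 5.14% in liver Crtc1-/-.

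**Figure D2:**
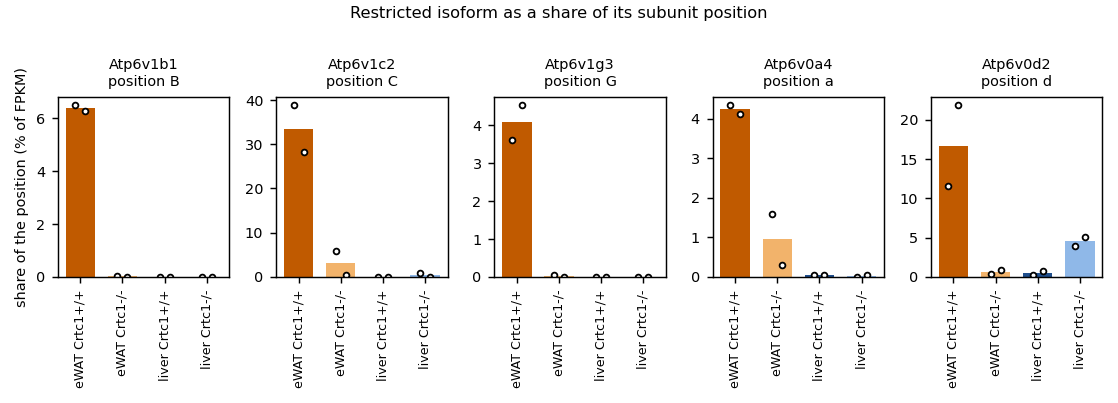
Share of each subunit position held by its epithelium-restricted isoform, in percent of the FPKM of all isoforms of that position in the same library. Bars are group means and open circles the 2 libraries of a group, each panel has its own axis from 0, and in all 5 panels both eWAT Crtc1+/+ libraries lie above the 6 others, with Atp6v1c2 reaching 38.9% and Atp6v0d2 rising to 5.14% in liver Crtc1-/-.

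The shares are ratios within a library and do not depend on scaling between libraries. They were not tested, since 2 libraries against 2 cannot reach the threshold in an exact permutation test. In all 5 positions both eWAT Crtc1+/+ libraries had a higher share of the restricted isoform than every other library. Of the remaining V-ATPase genes outside the ubiquitous class, 0 of 4 tested were called by edgeR (1 at an unadjusted p under 0.05, Atp6ap2, which DESeq2 called). Atp6v0e2, a brain-enriched form of the small subunit e, was at 102 and 84.9 CPM in eWAT Crtc1+/+, 75.4 and 48.9 CPM in eWAT Crtc1-/- and 0.233 to 1.23 CPM in liver, and was not called between the genotypes (log2 fold change -0.59). Atp6v1e2, the testis form of subunit E, had 92 counts in eWAT Crtc1+/+ replicate 1 and at most 9 in any other library. Of the accessory proteins, Atp6ap2, the (pro)renin receptor that is part of the pump, was at 24.4 and 43.9 CPM against 9.28 and 11.9 CPM in eWAT (-1.69, standard error 0.44, adjusted p = 0.0684), and Atp6ap1 was at 331 and 338 against 386 and 263 CPM. Atp6ap1l had 75 counts in eWAT Crtc1+/+ replicate 1 and at most 11 elsewhere (-2.26, standard error 1.77, adjusted p = 0.401).

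Genes known to act beside the pump in clear cells were counted from a list of 15, of which 11 were tested in eWAT, 2 fell and 2 rose. The 6 genes used as markers of Foxi1-positive cells, some of them in this list, held 0.0102% and 0.0108% of counts in eWAT Crtc1+/+, 0.00342% and 0.00257% in eWAT Crtc1-/- and at most 0.00023% in liver. In eWAT Crtc1-/- most of these counts came from Dmrt2 (569 and 381), with 2 and 0 from Foxi1 and from Aqp6. DESeq2 called 3 of the 11 partners higher and 4 lower, and the share of all genes called by edgeR in eWAT was 6.65% higher and 5.54% lower, which applies to each of the lists in this paragraph. Foxi1 had 1454 and 1525 counts (69.9 and 79.1 CPM) in eWAT Crtc1+/+, 2 and 0 in eWAT Crtc1-/-, and 1 count over the 4 liver libraries (log2 fold change -10.12, standard error 0.81, adjusted p = 0.0155). Its ratio from counts was 1.21e+03-fold (95% exact interval 335 to 1e+04). Aqp6, a channel of acid-secreting intercalated cells, went from 9.52 and 9.12 CPM to 0.110 and 0 CPM (-7.14, adjusted p = 0.0257). Foxi1, Aqp6 and, below, Slc9a2 passed the filter on low counts through eWAT Crtc1+/+ alone, so their falls are descriptions. The 2 genes of the list that rose were Tcirg1 and Dmrt2 (9.86 and 10.2 against 31.3 and 26.4 CPM; 1.53, adjusted p = 0.0498). Of 20 transporters of bicarbonate, protons and chloride, 17 were tested and 3 called (DESeq2 called 2 higher and 4 lower). The endosomal chloride-proton exchanger Clcn5 fell from 77.0 and 119 CPM to 7.42 and 5.41 CPM (-3.93, adjusted p = 0.0169), the sodium-proton exchanger Slc9a2 from 7.70 and 15.3 CPM to 0.275 and 0 CPM (-6.23, adjusted p = 0.0414), and the scaffold Slc9a3r2 rose from 47.6 and 37.9 to 556 and 248.7 CPM (3.23, adjusted p = 0.0275). Of 13 genes of assembly and of nutrient signalling at the lysosome, 12 were tested and 0 called (2 at an unadjusted p under 0.05, and 1 called by DESeq2). Of 28 lysosomal genes 4 rose and 2 fell (9 and 4 in DESeq2), with the lipase Lipa (2.43, adjusted p = 0.0275) and the cathepsin Ctsz (2.70, adjusted p = 0.0296) higher and the galactosidase Glb1 (-1.80, adjusted p = 0.0302) lower.

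Among the carbonic anhydrases the cytosolic Car2 and the membrane-bound Car12 fell in eWAT, and the membrane-bound Car4 and the mitochondrial Car5b rose. Car2 (chr3:14886269-14900770), the fast enzyme of acid-secreting and many other cells, was at 54.1 and 66.4 CPM in eWAT Crtc1+/+ and at 8.24 and 8.6 CPM in eWAT Crtc1-/- (log2 fold change -2.84, standard error 0.32, adjusted p = 0.0177). The liver groups overlapped, with 7.70 and 8.39 CPM in Crtc1+/+ and 5.45 and 12.3 CPM in Crtc1-/-. Car12 (chr9:66712296-66766845), a transmembrane enzyme with its active site outside the cell, had 358 and 500 counts (17.2 and 25.9 CPM) in eWAT Crtc1+/+, 4 and 2 counts in eWAT Crtc1-/- and 0 in all liver libraries (-6.84, standard error 0.59, adjusted p = 0.0162). Both genes fell in the libraries in which the epididymal markers were low, and the part of these markers in the result was not tested.

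Car4 (chr11:84957754-84966054), which is anchored to the outer membrane surface and is known from capillary endothelium, rose from 139.9 and 149.5 CPM to 650.1 and 500.3 CPM (1.99, standard error 0.34, adjusted p = 0.0311), and had at most 7 counts in a liver library. Car5b (chrX:163976822-164028010), the mitochondrial isoform of many tissues, rose from 67.8 and 92.7 CPM to 244 and 240.4 CPM (1.59, standard error 0.31, adjusted p = 0.0396, and 0.0508 without eWAT Crtc1-/- replicate 2), and stood at 1.23 to 2.26 CPM in liver. Neither pair of groups overlapped. In the same libraries the adipocyte markers held 0.21% and 0.335% against 3.86% and 1.81% of counts, and the endothelial markers 0.0299% and 0.0315% against 0.509% and 0.299%, and their part in these rises was not tested. With library-size factors, which moved the median of all genes in this comparison from -0.05 to -0.35, both rises were smaller and not called (Car4 1.70, adjusted p = 0.0665; Car5b 1.29, adjusted p = 0.0855). The call of Car5b was also lost with upper-quartile factors (adjusted p = 0.0503) and with limma on log2(FPKM + 1) or log2(FPKM + 0.1) (0.0629 and 0.0985), and that of Car4 with limma on log2(FPKM + 0.1) (0.0739) and in 1 fit of all 8 libraries (0.0895).

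Car3, a slow enzyme abundant in adipocytes, muscle and male liver, was the most abundant carbonic anhydrase in both tissues. It was at 206 and 581 FPKM in eWAT Crtc1+/+ and 1236 and 712 FPKM in eWAT Crtc1-/-, and at 89.3 to 249.3 FPKM in liver. The eWAT groups did not overlap, but the Crtc1+/+ replicates differed in FPKM by more than the gap between the groups, and the log2 fold change of 1.59 (standard error 0.64) was not called (adjusted p = 0.160). Car7, another cytosolic isoform, was at 15.0 and 13.5 against 16.8 and 6.94 CPM in eWAT, with overlap. Car13 was at 1.92 and 3.21 against 13.9 and 6.38 CPM (1.98, adjusted p = 0.107). Car1, known from red cells, was at 0.433 and 0.0518 against 1.70 and 2.43 CPM (3.04, adjusted p = 0.125), in libraries in which the 7 erythroid markers held 0.126% and 0.0395% against 0.741% and 0.439% of counts.

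The isoforms that are high in liver stood out in a single eWAT library. Car14, a transmembrane enzyme of hepatocytes and other cells, was at 10.2 and 7.10 CPM in eWAT Crtc1+/+, at 1.10 CPM in eWAT Crtc1-/- replicate 1 and at 43.3 CPM in replicate 2, beside 52.7 to 106 CPM in liver. Car5a, the liver mitochondrial isoform, was at 1.59, 0.467 and 1.43 CPM in the first 3 of these libraries, at 34.8 CPM in eWAT Crtc1-/- replicate 2 and at 28.7 to 55.3 CPM in liver. Car8, a related protein without catalytic activity, followed the same order, with 0.673, 0.259 and 0.714 CPM, then 13.4 CPM, and 13.2 to 18.9 CPM in liver. That library is the one in which hepatocyte markers held 9.91% of counts. Without it the log2 fold change between genotypes went from 4.12 to 0.47 for Car5a, from 3.89 to 0.60 for Car8 and from 1.36 to -2.99 for Car14, and 0 of the 3 genes were called with or without it. Without eWAT Crtc1-/- replicate 1, which leaves that library alone in its group, all 3 were called higher (Car5a 5.07, Car8 4.83 and Car14 2.33). Counts of Car14 were not whole in all 8 libraries and those of Car5a in 5, and the genes overlap Aph1a and BC048644. The remaining carbonic anhydrases were scarce, with Car6, Car9 and Car10 at most 0.330 CPM, Car15 at most 1.25 CPM and Car11 at most 3.13 CPM in any library.

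**Figure D3:**
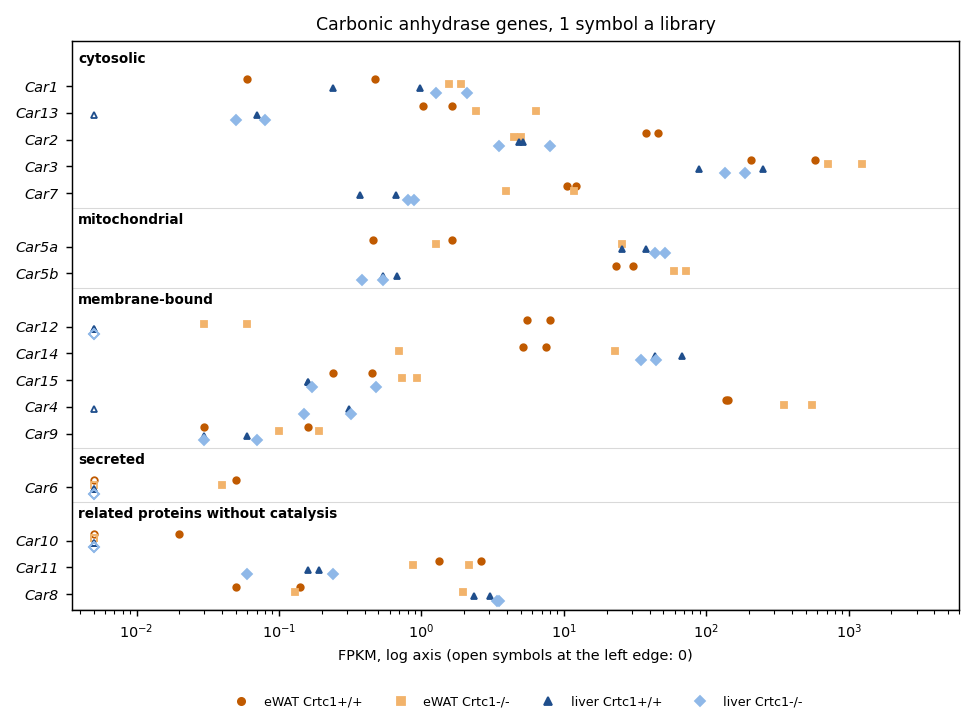
FPKM on a log axis of the 16 carbonic anhydrase genes in the 8 libraries, with 1 symbol for each library and open symbols at the left edge for a value of 0. Car3 lies highest in both tissues, Car12 and Car2 are highest in eWAT Crtc1+/+, and for Car14, Car5a and Car8 a single eWAT Crtc1-/- library lies near the liver values.

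No member was called between the genotypes in liver. edgeR called 10 of 11707 genes (0.0854%; 0.0598% higher and 0.0256% lower in Crtc1-/-), and 0 of the 27 members that passed the filter, with 2 members at an unadjusted p under 0.05 and 1 member called by DESeq2. Those 2 were Atp6v0d2, given above, and Car1 (0.257 and 1.05 against 2.20 and 1.34 CPM; log2 fold change 1.44, standard error 0.63, adjusted p = 0.281). For Atp6v0d2 the adjusted p ranged from 2.78e-05 to 0.479 over the alternatives, with DESeq2 (0.000103), no filter on low counts (0.00150), the replicate number as a block (0.0272) and the fits without liver Crtc1-/- replicate 1 or 2 (2.78e-05 and 0.0206) under the threshold, and a log2 fold change above 0 in each. The 14 ubiquitous subunits ranged from -0.49 to 0.58 on the log2 scale, with 3 values above 0 and 11 below and a median of -0.09 beside 0.00393 over all genes. Of the liver isoforms, Car5a was at 28.7 and 42.1 against 48.0 and 55.3 CPM (0.55, adjusted p = 0.331), Car14 at 68.1 and 106 against 52.7 and 66.7 CPM (-0.54, adjusted p = 0.360), Car8 at 13.2 and 17.2 against 18.7 and 18.9 CPM (0.30, adjusted p = 0.571), and Car3 at 125.5 and 354 against 258 and 185 CPM. The Crtc1+/+ and Crtc1-/- libraries of Car5a, Car14 and Car8 did not overlap, and those of Car3 did. This is a description, as the share of all genes without overlap was not counted and none of these genes was called.

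**Figure D4:**
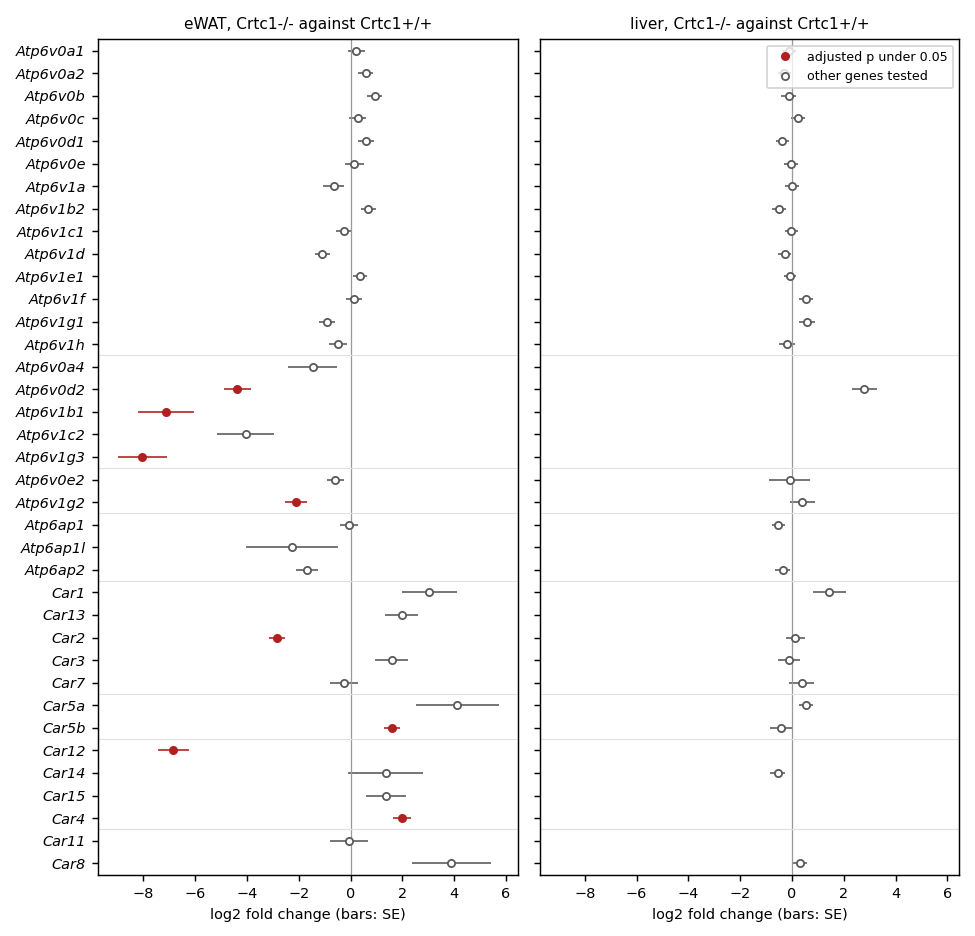
Log2 fold change (Crtc1-/- against Crtc1+/+) of each member tested, in eWAT on the left and in liver on the right on the same axis, with bars of 1 standard error and filled red symbols for an adjusted p under 0.05. In eWAT the called members reach from -8.05 (Atp6v1g3) to 1.99 (Car4) while the 14 ubiquitous subunits stay between -1.09 and 0.93, and in liver 0 members are called, with Atp6v0d2 at 2.79.

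The difference between the tissues in the effect of genotype was tested in a fit of all 8 libraries. It called 6.94% of 15587 genes (3.78% higher and 3.16% lower) and 4 of 37 members (10.8%), Atp6v0d2, Car2 and Atp6v1g2 with a lower and Car5b with a higher value in eWAT than in liver. The call of Car5b was lost with the replicate block and with library-size factors, and that of Atp6v1g2 with library-size factors. For Atp6v1b1, Atp6v1g3, Car12 and Atp6ap1l, at 0 in all liver libraries, the standard error of the difference was not usable. These genes could not be called, though they count among the 37. DESeq2 called 7 members, 3 of the 5 restricted isoforms among them, and limma on log2(FPKM + 1) called 10, with 4 of the 5, all of these restricted isoforms lower. Leaving out any liver library or any eWAT Crtc1+/+ library lowered the number of calls both among members and among all genes. Without liver Crtc1+/+ replicate 1 no call was left, and leaving out eWAT Crtc1-/- replicate 1 raised both numbers. Of the 14 ubiquitous subunits 0 were called by edgeR or DESeq2 (5 at an unadjusted p under 0.05 in edgeR), while limma on log2(FPKM + 1) called 2 lower. Their median in edgeR was 0.03 beside -0.21 over all genes.

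Between the tissues, the restricted isoforms were higher in the eWAT Crtc1+/+ libraries than in liver Crtc1+/+, and the values of the ubiquitous subunits depended on the scaling. In Crtc1+/+ 54.9% of all genes were called (35.0% higher and 19.8% lower in eWAT), and so were 21 of 37 members (56.8%, 16 higher and 5 lower), a share close to that of all genes. All 5 restricted isoforms were higher in eWAT. Atp6v1b1, Atp6v1c2 and Atp6v1g3 passed the filter on low counts through eWAT Crtc1+/+ alone, so their direction is a description. The epididymal markers held 8.07% and 9.34% of counts in the eWAT Crtc1+/+ libraries and 0.000213% and 0.000184% in liver Crtc1+/+. Their part in this difference between tissues was not tested. Counts in liver Crtc1+/+ were 0 for Atp6v1b1, Atp6v1c2, Atp6v1g3 and Car12, which were at least 14.3-fold, 47.3-fold, 48.7-fold and 59.5-fold higher in eWAT, taking 3 counts per library as the floor. Atp6v0a4 had 2 counts over both liver libraries, a ratio of 62.5 (95% exact interval 17.2 to 519), and Atp6v0d2 differed by 4.35 on the log2 scale (standard error 0.58, adjusted p = 0.00174). Atp6v0e2 (5.70, adjusted p = 0.00179), Atp6v1g2 (3.13, adjusted p = 0.00171), Car4 (8.40, adjusted p = 0.00127), Car5b (4.09, adjusted p = 0.000526), Car7 (2.71, adjusted p = 0.00558) and Car2 (1.69, adjusted p = 0.0100) were higher in eWAT as well. Car5a (-6.29, adjusted p = 0.0121), Car8 (-6.20, adjusted p = 0.00901) and Car14 (-4.55, adjusted p = 0.0304) were lower. Leaving out either liver Crtc1+/+ library lowered the number of calls both among members and among all genes.

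In Crtc1-/- 27.8% of all genes (18.9% higher and 8.89% lower) and 10 of 37 members (27.0%) were called, 8 higher and 2 lower in eWAT, again a share close to that of all genes. Of the restricted isoforms Atp6v0a4 was higher in eWAT, with 86 and 10 counts against 0 and 1 in liver. The ratio of pooled counts was 43.0 (95% exact interval 7.53 to 1.71e+03), and most of the eWAT counts came from replicate 1. Atp6v0d2 was lower (-2.87, standard error 0.54, adjusted p = 0.0112), and Atp6v1b1, Atp6v1c2 and Atp6v1g3 were not called. Leaving out any single library except eWAT Crtc1-/- replicate 2 lowered the number of calls both among members and among all genes. Leaving out eWAT Crtc1-/- replicate 2 raised both.

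Atp6v0d2 was higher in eWAT than in liver in Crtc1+/+ and lower in Crtc1-/-, with both differences past the threshold. Car2 was also on opposite sides, at 1.69 in Crtc1+/+ and -1.36 (standard error 0.38, adjusted p = 0.0376) in Crtc1-/-. Car4 (9.71, adjusted p = 0.00116), Car5b (6.03, adjusted p = 0.000392), Car13 (4.82, adjusted p = 0.0137), Atp6v0e2 (5.08, adjusted p = 0.00429) and Car7 (1.96, adjusted p = 0.0286) were higher in eWAT. Of the 14 ubiquitous subunits 3 were called higher and 2 lower in Crtc1+/+, and 2 higher and 0 lower in Crtc1-/-, with medians of -0.08 and -0.05 beside 0.61 and 0.20 over all genes. With library-size factors, the scale closest to FPKM, the medians were 1.32 and 1.10 beside 2.0 and 1.33 over all genes. With these factors 11 and 9 of the 14 were called higher, beside 10702 and 7022 of all 15587 genes tested. No direction between the tissues is therefore given for the ubiquitous pump.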

How the data were processed

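RNA-seq was made from liver and eWAT of Crtc1+/+ and Crtc1-/- mice, with 2 libraries for each of 4 groups. Per the labels, the processing notes name HISAT, Bowtie2 and the build GRCm38.p6. The authors deposited estimated counts per gene for 19348 genes, which need not be whole and were rounded here, and FPKM, which the authors had scaled to gene length and library depth. The counting program and the use of strand are not given in the sources used here.

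Depth was 16560070 to 19721464 estimated counts per library, and intervals and floors from counts cover counting error only. Genotypes were compared within each tissue, and tissues and the interaction in 1 fit of all 8 libraries, with edgeR 4.0.16 (R 4.3.3): filterByExpr, TMM factors, the quasi-likelihood test, Benjamini-Hochberg adjustment over all genes tested, and calls at an adjusted p under 0.05. Log2 fold changes are Crtc1-/- against Crtc1+/+, or eWAT against liver. Standard errors were back-calculated as the absolute log2 fold change over the square root of the F statistic of the test. CPM are estimated counts over the library total times its TMM factor within the tissue (0.818 to 1.14 in eWAT, 0.974 to 1.04 in liver). The self-test ran the same fit on simulated data. Alternatives were DESeq2 1.42.0, upper-quartile and library-size factors, no filter, a mean count of at least 50, limma 3.58.1 on quantile-normalized log2(FPKM + 1) or log2(FPKM + 0.1), which is nearest to the study's own method, 1 fit of all libraries, a replicate block and leaving out each library.

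Isoform shares are FPKM of 1 isoform over all isoforms of its position, with no test. Members and lists were chosen with earlier results of these data known. Libraries were given by value for members called between genotypes or in the interaction, for isoforms of positions B, C, G, a and d, and for the 5 carbonic anhydrases with the highest mean FPKM in each tissue, and members named outside this rule were picked after their values were seen. Of the partner lists, called genes were named, at most 5 a list. The study's methods state 2 mice per genotype with both tissues taken, but whether equal numbers mark the same mouse is not given, and p-values measure the spread between these libraries.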

Additional observations from a re-analysis of the deposited data

Results flagged for a closer look

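For 4 members the difference between the genotypes itself differed between eWAT and liver in the interaction test of edgeR, with 2 libraries in each of the 4 groups. Atp6v0d2, the restricted d isoform, fell in eWAT (-4.37) and was at 2.79 in liver, a difference of -7.22 (standard error 0.79, adjusted p = 0.00951), with both libraries of a group on the same side in each tissue. Car2, the fast cytosolic carbonic anhydrase, was at -2.84 in eWAT and 0.13 in liver, a difference of -3.04 (standard error 0.53, adjusted p = 0.0226). Atp6v1g2, an isoform of the stator subunit G, was at -2.12 in eWAT and 0.40 in liver, a difference of -2.61 (standard error 0.56, adjusted p = 0.0405). Car5b, a mitochondrial carbonic anhydrase, was at 1.59 in eWAT and -0.42 in liver, a difference of 1.94 (standard error 0.41, adjusted p = 0.0393). The call of Car5b was lost with the replicate block and with library-size factors, and that of Atp6v1g2 with library-size factors. The epididymal markers, at 8.07% and 9.34% of counts in eWAT Crtc1+/+ and at most 0.0084% in the other 6 libraries, move with the same group, and their part in these differences was not tested.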

How the results depend on the processing

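Of 977 values recomputed for 69 combinations of a named gene and a comparison, 796 kept their direction and side of the threshold, 139 lost the call, 39 gained one and 3 reversed. The 3 were the eWAT log2 fold change of Car14 (1.36), at -0.16 with limma on log2(FPKM + 0.1), -0.20 with the replicate block and -2.99 without eWAT Crtc1-/- replicate 2, within a range of -2.99 to 2.33 over the left-out libraries. DESeq2 called 17 members and 4620 of all genes between genotypes in eWAT, 1 and 311 in liver, and 7 and 2056 in the interaction. One fit of all 8 libraries called 3861 genes in eWAT and 0 in liver. With no filter 1 member and 301 genes were called in liver. With limma 0 genes were called in liver at either pseudocount, and 10 members and 2533 genes (+ 1) or 9 and 2390 (+ 0.1) in the interaction. With library-size factors the interaction gave 2 members and 705 genes, and eWAT against liver in Crtc1-/- 21 members and 7127 genes. The causes were not tested.

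Differences between replicates 1 and 2 had correlations over genes of 0.152 across tissues in Crtc1+/+ and 0.0356 in Crtc1-/-. Between genotypes, hence between different mice, they were 0.00860 in eWAT and 0.0516 in liver. Across both tissue and genotype they were 0.126 and 0.0911. These values cannot tell whether equal replicate numbers mark the same mouse. With the replicate block 0 members and 0 genes were called in eWAT (13 and 5418 at an unadjusted p under 0.05), and 1 member and 82 genes in liver, and the members called became 3 in the interaction, 22 between tissues in Crtc1+/+ and 12 in Crtc1-/-.

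Leaving out 1 library gave 0 to 13 members and 0 to 3073 genes in eWAT, 0 to 2 and 1 to 1507 in liver, 0 to 9 and 0 to 2261 in the interaction, 13 to 24 and 4285 to 8872 between tissues in Crtc1+/+, and 3 to 14 and 1511 to 5962 in Crtc1-/-. A group left with 1 library is assumed to vary like the others.

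Scaling moved the higher against lower split in eWAT from 2 and 6 members to 0 and 7 with library-size and 1 and 6 with upper-quartile factors, and from 1023 and 852 genes to 587 and 1075 and to 744 and 996. Between tissues in Crtc1+/+ it went from 16 and 5 members to 28 and 3 with library-size factors. As shares of counts in place of FPKM, the mean shares in eWAT Crtc1+/+ were 4.46% (Atp6v1b1), 7.11% (Atp6v1g3), 3.41% (Atp6v0a4), 26.9% (Atp6v1c2) and 24.2% (Atp6v0d2), and 1.06% for Atp6v0d2 in eWAT Crtc1-/-. Depth limits Atp6v1b1 and Atp6v1g3 outside eWAT Crtc1+/+, where they had 0 to 2 counts.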
